A study of Canis lupus familiaris with 12 samples.

Results

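Snail and Slug transfectants of the dog kidney epithelial line MDCK were compared with each other through their ratios to the same MDCK-CMV control. The comparison used the 8 of 12 arrays that carry a Snail or a Slug sample, 4 arrays for each transfectant. Each transfectant came as samples 1 and 2, both hybridised against the control once in each dye assignment. The mean of a sample's 2 arrays served as 1 replicate, so 2 Snail replicates (n = 2) were set against 2 Slug replicates (n = 2), and every difference is given as Snail minus Slug on the log2 scale. The control cells are named only as MDCK-CMV, and the labels do not give the constructs, whether each line is 1 clone, or whether samples 1 and 2 were grown separately. The p-values therefore measure the spread between these samples, which may be technical. The remaining 4 arrays, of the E47 transfectant, entered the fit only to share the estimate of the spread. They also took part in the scaling to one spread and in the setting of probes present on all 12 arrays. E47 ratios are given for some genes. Ratios to a control hold no level of a gene, so the epithelial identity of the cells could not be checked against its markers.

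Snail and Slug are zinc finger transcription factors of one family, encoded by SNAI1 and SNAI2. Both bind E-box sequences and repress CDH1, the gene of the adhesion protein E-cadherin, and both drive epithelial cells towards a migratory, fibroblast-like state called the epithelial-mesenchymal transition. MDCK cells, which form polarised sheets joined by cadherin junctions and desmosomes, are a classical model of that change. SNAI1 has a probe on the array, while no probe is named SNAI2, so the level of Slug itself was not analysed here.

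Values were present for 10654 to 12982 of 13056 probes per array, and 3675 genes had both replicates in both transfectants. Across genes, which are not independent replicates, the 2 Snail replicates correlated with r = 0.654 and the 2 Slug replicates with r = 0.721. Slug arrays had the wider ratios, with an SD of 0.640 to 0.695 against 0.479 to 0.586 on the Snail arrays, so each main count is also given with all arrays scaled to one spread. The labels do not say which channel is the numerator, and as deposited the arrays of sample 1 and sample 2 of a transfectant ran in opposite directions (r between -0.600 and -0.373 over 8 pairs, also where the dye was the same). The 2 arrays of one numbered sample ran in the same direction (r between 0.309 and 0.680 over 4 pairs). The Snail 2 and Slug 1 arrays were turned by -1, which places CDH1, as the mean of its clones, below the control in every replicate. Directions are therefore assumed, and a low CDH1 ratio is no finding.

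The transfectants differed at 527 of 3675 genes at a Benjamini-Hochberg adjusted p under 0.05 in limma, which is 14.3%. Slug was the higher at 362 of them (9.85% of the genes tested) and Snail at 165 (4.49%). At least 2-fold differences made up 233 of the 527 (6.34%), 163 higher in Slug and 70 higher in Snail. With the arrays scaled to one spread 340 genes passed (9.25%), 241 higher in Slug (6.56%) and 99 higher in Snail (2.69%), and 335 of these were among the 527. The direction of none of the 527 changed with that scaling. Without the E47 replicates in the fit 388 genes passed in limma, 273 higher in Slug and 115 higher in Snail. Of these 388, 380 were among the 527. The median difference over all genes tested was -0.092. All 4 Slug arrays were above all 4 Snail arrays at 555 genes (15.1%), and the reverse held at 275 (7.48%); among the 527, these numbered 304 and 139. Replicates of the 2 transfectants did not overlap at 59% of all genes, so a lack of overlap between replicates alone says little.

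By the sign of their replicates alone, most of the differing genes lay on opposite sides of the control in the 2 transfectants. Both Snail replicates were below 0 and both Slug replicates above it for 237 genes, and the reverse held for 102. Together these 339 genes are 9.22% of those tested. Of all tested genes, 23.8% had replicates on opposite sides in that way with or without passing. Choosing genes by a large difference between 2 ratios near 0 itself favours opposite signs. Only 24 of the 339 passed against the control in both transfectants, so most are not shown to be regulated in opposite directions. Genes that differed on one side of the control were fewer: 41 above it with Slug the higher, 6 above it with Snail the higher, and 13 below it in each direction. The remaining 115 had replicates of a transfectant on both sides of 0, 71 higher in Slug and 44 higher in Snail. After scaling to one spread, the genes on opposite sides numbered 239, with 174 higher in Slug and 65 higher in Snail, and the genes above the control in both with Slug the higher fell from 41 to 9.

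The relative sign of Slug and Snail decides these counts. With Slug turned against Snail, the difference becomes the sum of the 2 ratios, and 705 genes passed in limma, 325 in one direction and 380 in the other, of which 222 were among the 527. The leading genes then were SPARC, SPP1, FXYD3, LUM, IL1RN and RGS2, and 17 of the 24 genes with the largest differences described next still passed. Of the genes below, HDGF (-0.54), SRSF4 (-0.08), CCND1 (-0.11) and EGR1 (0.47) did not pass with Slug turned, while VEGFA (1.71), BHLHE40 (2.37) and JUND (1.06) did, in the other direction.

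**Figure D1:**
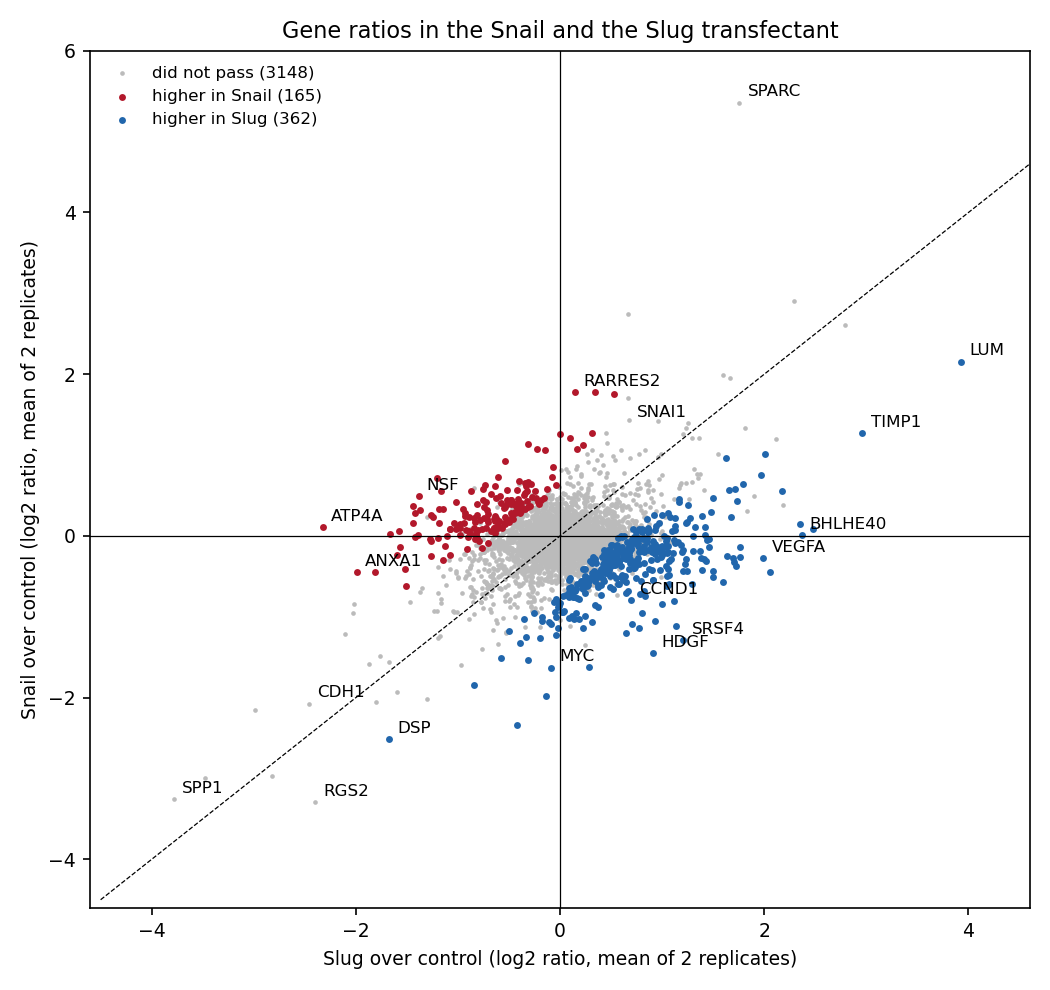
Mean log2 ratio to the control of 3675 genes in Slug (horizontal axis) and in Snail (vertical axis), with grey points for the 3148 genes that did not pass adjusted p of 0.05 in limma, red for the 165 higher in Snail and blue for the 362 higher in Slug. The dashed line marks equal ratios: blue points gather at the lower right, most of them above the control in Slug, red points at the left and top, and SPP1, CDH1 and RGS2 at the lower left are far below the control in both.

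VEGFA and HDGF were among the genes with the largest differences towards Slug. VEGFA, the angiogenic growth factor, had log2 ratios of -0.25 and -0.30 in the 2 Snail replicates and 1.91 and 2.07 in the 2 Slug replicates. It was 4.81-fold higher in Slug, a difference of -2.27 ± 0.18 (SE, limma adjusted p = 0.00208). HDGF, a growth factor first found in hepatoma cells, was at -1.61 and -1.29 in Snail and at 0.98 and 0.85 in Slug, a difference of -2.36 ± 0.19 (5.15-fold; limma adjusted p = 0.00208). The arrays of both genes stood apart, with the highest Snail array of VEGFA at 0.029 and its lowest Slug array at 1.71. These 2 were also the only ones of 20 angiogenesis and hypoxia genes that passed, a share of 10% beside 14.3% of all genes.

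SRSF4, a splicing factor of the serine- and arginine-rich family, was below the control in Snail (-1.08 and -1.5) and above it in Slug (1.42 and 1.0), a difference of -2.50 ± 0.23 (limma adjusted p = 0.00208). PATL1, which takes part in messenger RNA decapping and decay, was at -0.24 and -0.65 in Snail and 1.76 and 2.35 in Slug (-2.50 ± 0.26, limma adjusted p = 0.00303). BHLHE40, a helix-loop-helix repressor that responds to hypoxia and the circadian clock, was close to the control in Snail (-0.13 and 0.15) and high in Slug (2.23 and 2.50), a difference of -2.36 ± 0.25. In these 3 genes no Snail array reached the lowest Slug array. Of 11 splicing factors named SRSF or HNRNP, a list made after values had been seen, SRSF4 and SRSF9 were higher in Slug and 9 did not pass. That share of 18.2% stood beside 14.3% of all genes.

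The other large differences towards Slug were in MACIR (-2.25), PTPN1, a tyrosine phosphatase (-2.10), and PPP1R9B, the actin-binding scaffold spinophilin (-2.02). SIRPA, a membrane receptor of CD47, was at 0.06 and 0.12 in Snail and 2.26 and 2.68 in Slug (-2.38). CDKN1A, the cyclin-dependent kinase inhibitor p21, was at 0.26 and 0.04 in Snail and 2.40 and 2.29 in Slug (-2.19 ± 0.54, limma adjusted p = 0.0326). BHLHE40 and CDKN1A were the 2 members of 7 that passed in the list of helix-loop-helix inhibitors and targets, 28.6% beside 14.3% of all genes. The replicates of CDKN1A lay close together in both transfectants, while the E47 replicates that share in its SE were at -0.34 and 1.74.

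ATXN7L3, a subunit of a histone deubiquitinating module, and MAZ, a zinc finger factor, had Slug replicates far apart, at 2.32 and 0.88 and at 2.52 and 0.47. Their differences were -2.17 and -2.00. With the arrays scaled to one spread SIRPA (adjusted p = 0.0582), CDKN1A (0.12) and MAZ (0.0578) no longer passed in limma. CDKN1A lost its call without any one of the 4 replicates (-2.30 to -2.09), SIRPA (-2.35 and -2.42) and ATXN7L3 (-2.14 and -2.19) without Snail replicate 1 or 2, and MAZ without Snail replicate 1 (-2.30), Snail replicate 2 (-1.70) or Slug replicate 1 (-0.97). Without Slug replicate 1 ATXN7L3 passed at -1.44, and without Slug replicate 2 MAZ passed at -3.02.

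Towards Snail, the leading genes were mostly genes that lay below the control in Slug and near it in Snail. ATP4A, the catalytic subunit of the gastric proton pump, had 0.46 and -0.24 in Snail and -2.44 and -2.21 in Slug. It was 5.4-fold higher in Snail, by 2.43 ± 0.24 (limma adjusted p = 0.00295), and its 4 Slug arrays ran from -2.63 to -2.13 while no Snail array was under -0.674. NSF, the ATPase that disassembles membrane fusion complexes, was above the control in Snail (0.61 and 0.38) and below it in Slug (-1.15 and -1.62), a difference of 1.88 ± 0.26 (limma adjusted p = 0.00612).

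ALCAM, a cell adhesion molecule of the immunoglobulin family, was at -0.02 and 0.34 in Snail and at -1.43 and -1.46 in Slug, 1.60 ± 0.19 higher in Snail (limma adjusted p = 0.00381). ANXA1, a calcium-dependent membrane-binding protein, was below the control in both, by -0.56 and -0.33 in Snail and by -2.03 and -1.95 in Slug (1.55 ± 0.19, limma adjusted p = 0.00381). RARRES2, the secreted chemoattractant chemerin, was the one gene of the 12 largest with its difference on the Snail side of the control: it was at 1.21 and 2.35 in Snail and 0.15 and 0.13 in Slug (1.64 ± 0.32, limma adjusted p = 0.0178).

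The other genes among the 12 largest towards Snail had these differences. SAR1B, a GTPase of vesicles that leave the endoplasmic reticulum, differed by 1.69, TMEM258, a subunit of the enzyme that attaches glycans to proteins, by 1.72, and SLC44A1, a choline transporter, by 1.71. TRMT11, a transfer RNA methyltransferase, differed by 1.70, MRPL1, a protein of the mitochondrial ribosome, by 1.81, NSMCE2, a SUMO ligase of DNA repair, by 1.92 and GPBP1L1 by 1.64. MRPL1, SLC44A1 and NSMCE2 had Snail replicates about 1 log2 unit apart, with -0.13 and 0.85 for MRPL1, -0.26 and 0.84 for SLC44A1 and 0.22 and 1.22 for NSMCE2, which also had only 1 E47 replicate in the fit. GPBP1L1 did not pass after scaling (adjusted p = 0.0587, limma). It lost its call without Snail replicate 1 (1.69), Snail replicate 2 (1.59) or Slug replicate 1 (1.5). RARRES2 lost it without Slug replicate 1 (1.65) and passed at 1.07 without Snail replicate 2.

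**Figure D2:**
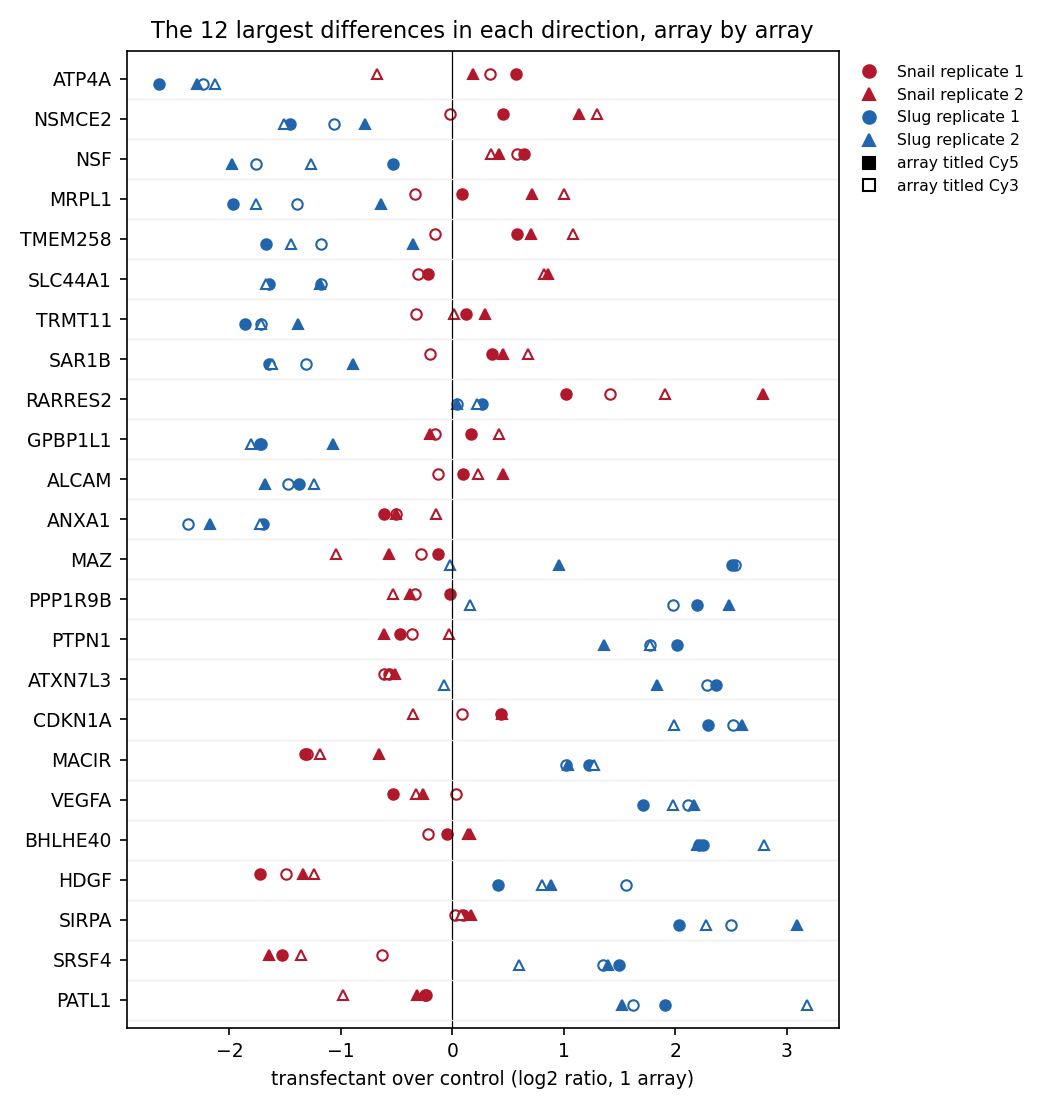
Log2 ratio to the control on each of the 8 arrays (horizontal axis) for the 12 genes with the largest differences towards Snail (upper rows) and towards Slug (lower rows) among those with no overlap of arrays. Red marks Snail and blue marks Slug, circles are replicate 1 and triangles replicate 2, and filled points are arrays titled Cy5. Most upper genes have Snail near 0 and Slug below it, most lower genes have Snail near or below 0 and Slug above it, and MAZ and ATXN7L3 have a single Slug array close to 0.

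A stricter group consists of genes that passed against the control in both transfectants and lay on opposite sides of it. There were 24 such genes among the 527, out of 3675 genes tested. Of all genes tested 7.84% passed against the control in Snail and 23.5% in Slug. Of the 527, 339 passed against the control in Slug alone, 86 in Snail alone, 33 in both on either side and 69 in neither. These comparisons with the control share the control with each other and with the difference, and they leave out its own spread. In 23 of the 24 genes Snail was below the control and Slug above it. They include SRSF4 and HDGF, a further splicing factor, SRSF9 (means of -1.14 in Snail and 0.78 in Slug), and ARPC1B, a subunit of the complex that nucleates branched actin (-1.06 and 0.93). ITFG1, a membrane protein, was the one gene of the 24 above the control in Snail (0.62) and below it in Slug (-0.64).

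Growth factor, receptor and MAPK genes were higher in Slug more often than in Snail. Of 40 tested members 10 were higher in Slug, 1 was higher in Snail and 29 did not pass, against 9.85% and 4.49% of all genes. The median difference of the list was -0.44, against -0.092 over all genes. With arrays scaled to one spread 7 were higher in Slug and 2 in Snail. Leaving out 1 replicate, 3, 4, 4 and 9 members were higher in Slug without Snail 1, Snail 2, Slug 1 and Slug 2 in turn.

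EGR1 and transcription factors of the JUN family made up 4 of these 10. JUND, a subunit of AP-1, was at -0.51 and -0.37 in Snail and 1.54 and 1.46 in Slug, with no overlap of arrays and a difference of -1.94 ± 0.17 (3.83-fold, limma adjusted p = 0.00208). EGR1, a zinc finger factor induced by growth factors, was at -0.71 and -0.49 in Snail and 1.32 and 0.81 in Slug (-1.66 ± 0.21, limma adjusted p = 0.00469). One Slug array of EGR1, sample 2 titled Cy3, was at -0.597 and overlapped the Snail arrays. The difference of EGR1 was -2.57 on arrays titled Cy5 and -0.76 on arrays titled Cy3, where it did not pass (limma adjusted p = 0.408). JUNB differed by -1.64 with Slug replicates of 1.97 and 0.44, and it lost its call without Snail replicate 1 (-1.65), Snail replicate 2 (-1.62) or Slug replicate 1 (-0.87). JUN itself was at -0.34 and -0.47 in Snail and 0.13 and 0.33 in Slug (-0.63, adjusted p = 0.0469 in limma, and 0.0648 after scaling).

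Among ligands and receptors, FGFR1, a fibroblast growth factor receptor, was above the control in both, with 0.20 and 0.39 in Snail and 1.45 and 1.5 in Slug (-1.18 ± 0.19, limma adjusted p = 0.00882). HGF, the ligand of the MET receptor, differed by -0.97, IGF2R, a receptor that clears insulin-like growth factor, by -0.85 and IGF1R, the signalling receptor, by -0.64. The kinases MAPK3 and MAPK9 differed by -0.89 and -0.66. SPRY1, an inhibitor of this signalling, was the member that was higher in Snail, with 0.51 and 0.83 in Snail and -0.47 and -0.17 in Slug (0.99 ± 0.20). FGFR1 lost its call without Snail replicate 1 (-1.09, adjusted p = 0.0526 in limma).

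In the Wnt list 5 of 27 tested members were higher in Slug and none in Snail, beside 9.85% and 4.49% of all genes, and 22 did not pass. CCND1, the cyclin D1 that carries cells into replication, was at -0.91 and -0.69 in Snail and 0.73 and 0.66 in Slug (-1.49 ± 0.17, 2.80-fold, limma adjusted p = 0.00381). Its clones went apart: clones 1 and 3 differed by -2.35 and -2.26, while clone 2 had 0.09 in the 1 Snail replicate where it was measured and -0.37 and -0.096 in Slug. MYC, a driver of growth, was far below the control in Snail (-1.24 and -2.02) and near it in Slug (0.01 and -0.18), a difference of -1.55 ± 0.25 (limma adjusted p = 0.00994). CCN1, a secreted matrix-associated signalling protein, differed by -1.49, AXIN1, a scaffold of beta-catenin breakdown, by -1.11 and TLE1, a corepressor, by -1.07. The call of AXIN1 was lost without Snail replicate 1 (-1.23), Snail replicate 2 (-1.0) or Slug replicate 1 (-0.88), and 3 members of the list passed without Snail 1 or Slug 1.

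Cell cycle and replication genes passed in both directions. Of 45 tested members 8 were higher in Slug, 2 were higher in Snail and 35 did not pass. Beside them stand 9.85% and 4.49% of all genes, so the 2 higher in Snail were at about the share of all genes. The median difference of -0.10 was near that of all genes. E2F1, a transcription factor of replication genes, was at the control in Snail (0.017 and 0.012) and above it in Slug (1.31 and 1.52), a difference of -1.40 ± 0.19 (limma adjusted p = 0.00581). CDC25B, a phosphatase that starts mitosis, and PLK1, a mitotic kinase, were higher in Slug by -1.08 and -1.03, and WEE1, the kinase that holds mitosis back, by -1.01. The clones of CDC25B differed by -1.64 and -0.52. The 2 members higher in Snail act in the spindle checkpoint: BUB1 was at -0.16 and -0.31 in Snail and -1.80 and -1.40 in Slug (1.36 ± 0.23), and BUB1B differed by 0.71. Without Snail replicate 1 the calls of CDC25B (-1.02), PLK1 (-0.91) and BUB1 (1.29) were lost, and without Snail replicate 2 that of CDC25B (-1.14). Members higher in Slug numbered 3, 3, 4 and 6 without Snail 1, Snail 2, Slug 1 and Slug 2.

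Junction genes passed at about the share of all genes, 17.6% against 14.3%. Of 17 tested members 3 were higher in Slug, none in Snail, and 14 did not pass, among them CDH1. JUP, the plakoglobin of desmosomes and adherens junctions, was below the control in Snail (-0.32 and -1.03) and above it in Slug (0.86 and 0.79), a difference of -1.5 ± 0.26 (limma adjusted p = 0.0113). DSP, the desmosome protein that anchors keratin filaments, was low in both, at -2.38 and -2.64 in Snail and -1.63 and -1.71 in Slug (-0.84 ± 0.18, adjusted p = 0.0203 in limma). CTNNA1, the alpha-catenin that ties cadherins to actin, was at -0.70 and -1.03 in Snail and at -0.08 and 0.07 in Slug (-0.86 ± 0.19). All 3 stayed past the threshold with arrays scaled to one spread, where the difference of DSP was -1.30. JUP lost its call without Snail replicate 2 (-1.15), DSP without Snail replicate 1 (-0.97), Snail replicate 2 (-0.71) or Slug replicate 1 (-0.80), and CTNNA1 without any one of the 4 (-1.02 to -0.69).

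Among 14 keratin and epithelial differentiation genes, 3 were higher in Slug, 1 was higher in Snail and 10 did not pass. The share of 28.6% stood beside 14.3% of all genes, where 9.85% were higher in Slug and 4.49% in Snail. TFF1, a secreted peptide of mucous epithelia, was at -2.73 and -1.95 in Snail and -0.31 and -0.53 in Slug, with a difference of -1.92 ± 0.47 (limma adjusted p = 0.0318). SFN, the epithelial 14-3-3 sigma protein, was at -0.54 and -0.21 in Snail and 1.03 and 1.04 in Slug (-1.41 ± 0.18, limma adjusted p = 0.00469). KRT7, a keratin of simple epithelia, was at -1.02 and -0.98 in Snail and -0.42 and 0.06 in Slug (-0.82). ANXA3, an annexin, was the member higher in Snail, by 0.88, and it did not pass after scaling (0.59, adjusted p = 0.163 in limma). TFF1 lost its call without any one of the 4 replicates (-2.31 to -1.53), KRT7 without Snail 1 (-0.80), Snail 2 (-0.84) or Slug 2 (-0.58), and ANXA3 without Snail 1 (0.76), Snail 2 (1.01) or Slug 1 (0.58).

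Mesenchymal markers that passed were all higher in Slug, 3 of 10, while the members with the largest ratios towards Snail, SPARC and CALD1, did not pass. Among all genes 9.85% were higher in Slug and 4.49% in Snail. ENG, a co-receptor of TGF-beta, was at -0.07 and -1.17 in Snail and 1.37 and 0.74 in Slug (-1.67 ± 0.36, limma adjusted p = 0.0213). FN1, fibronectin, was above the control in both, with 0.73 and 1.29 in Snail and 1.87 and 2.14 in Slug (-0.99 ± 0.26, adjusted p = 0.039 in limma). THY1, a surface glycoprotein of fibroblasts, was low in Snail (-0.81 and -0.83) and at the control in Slug (0.04 and -0.08). After scaling, FN1 did not pass (-0.58, adjusted p = 0.216 in limma) and SPARC did. FN1 also lost its call without any one of the 4 replicates (-1.27 to -0.71), ENG without Snail 2 (-1.12) or Slug 1 (-1.36) and THY1 without Snail 1 (-0.81), Snail 2 (-0.79) or Slug 1 (-0.74).

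Of 6 transcription factors of the transition with a probe, 1 passed, a share of 16.7% beside 14.3% of all genes. The one that passed was TCF3, the gene of E47. It was at 0.13 and -0.23 in Snail and 1.12 and 1.11 in Slug (-1.17 ± 0.19, limma adjusted p = 0.00987), and lost its call without Snail replicate 2 (-0.99, adjusted p = 0.0517). TWIST1 had 0.26 and 0.34 in Snail and 1.48 and 2.19 in Slug. Its difference was -1.53 with a 95% interval from -2.57 to -0.49 and an adjusted p of 0.0579 in limma. TWIST1 did pass with only the Snail and Slug replicates in the fit, with a replicate block and on probes present on all 12 arrays. Differences of -0.91 in TCF4, -0.42 in ZEB1 and -0.16 in KLF8 did not pass.

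In the matrix list 4 of 30 were higher in Slug and 1 in Snail, a share of 16.7% that is close to the 14.3% of all genes. LUM, the proteoglycan lumican, was above the control in both, at 1.57 and 2.74 in Snail and 3.73 and 4.12 in Slug (-1.77 ± 0.36, limma adjusted p = 0.019). BGN, the proteoglycan biglycan, was below the control in Snail (-0.86 and -1.2) and near it in Slug (0.08 and 0.19), a difference of -1.16 ± 0.18 (limma adjusted p = 0.00882). PLOD1, a collagen lysyl hydroxylase, was higher in Slug by -1.03, and GPC3, a surface proteoglycan with 1 E47 replicate in the fit, was higher in Snail by 0.95. After scaling, LUM (-1.01, adjusted p = 0.0986 in limma) and PLOD1 (-0.89, 0.063) did not pass. Calls were lost for LUM without Snail 1 (-1.18) or Slug 2 (-1.57), for PLOD1 without Snail 1 (-1.06), Snail 2 (-1.0) or Slug 1 (-0.91) and for GPC3 without Snail 1 (0.97), Snail 2 (0.92) or Slug 1 (0.77).

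Of 26 matrix proteases and inhibitors, 2 inhibitors were higher in Slug, and 2 proteases and an inhibitor were higher in Snail. The share that passed was 19.2%, beside 14.3% of all genes, where 9.85% were higher in Slug and 4.49% in Snail. TIMP1, an inhibitor of metalloproteinases, was at 1.39 and 1.15 in Snail and 2.56 and 3.36 in Slug (-1.69 ± 0.28, 1 E47 replicate in the fit, limma adjusted p = 0.0122). TIMP3, an inhibitor bound to the matrix, was at -1.30 and -1.21 in Snail and -0.52 and 0.13 in Slug (-1.06 ± 0.23), with clone differences of -0.43 and -1.70. ADAM10, a protease that sheds surface proteins, was at 0.40 and -0.08 in Snail and -0.89 and -0.99 in Slug (1.10 ± 0.20, limma adjusted p = 0.0132), and CTSK, a collagen-degrading cathepsin, at 1.05 and 1.2 in Snail and 0.19 and 0.25 in Slug (0.90 ± 0.17). RECK, a membrane-anchored inhibitor of metalloproteinases, was also higher in Snail, by 0.75. All 5 kept their calls after scaling. The arrays of CTSK overlapped, with a difference of 1.62 on arrays titled Cy5 and of 0.18 on arrays titled Cy3, where the call was lost. Without Snail replicate 1 the calls of TIMP1 (-1.81), TIMP3 (-1.02), ADAM10 (0.86) and CTSK (0.98) were lost, as were those of TIMP1 (-1.57), TIMP3 (-1.11) and CTSK (0.83) without Snail replicate 2, CTSK (0.87) without Slug replicate 1 and TIMP3 (-0.74) without Slug replicate 2.

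Of 22 integrin and focal adhesion genes 4 were higher in Slug and none in Snail, so 18.2% passed beside 14.3% of all genes. ITGA6, a laminin receptor subunit, was below the control in both, at -1.59 and -1.49 in Snail and -0.55 and -0.08 in Slug (-1.23 ± 0.21, limma adjusted p = 0.0113). ITGA10, a collagen receptor subunit, was at the control in Snail (-0.15 and 0.03) and above it in Slug (1.02 and 1.05), a difference of -1.10 ± 0.17 (limma adjusted p = 0.00804). TLN1, the talin that links integrins to actin, and PXN, the adaptor paxillin, differed by -1.44 and -1.15, with Slug replicates of 2.18 and 1.16 and of 1.40 and 0.46. PXN did not pass after scaling (adjusted p = 0.0556 in limma). ITGA6 lost its call without Snail 1 (-1.18) or Snail 2 (-1.28), TLN1 without Snail 1 (-1.48) or Snail 2 (-1.41), and PXN without Snail 1 (-1.30), Snail 2 (-1.01) or Slug 1 (-0.69). TLN1 passed at -0.93 without Slug replicate 1.

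Of 17 glycolysis, glucose transport and lipid genes 3 were higher in Slug and none in Snail, beside 9.85% and 4.49% of all genes. ALDOA, the aldolase of glycolysis, was at -0.29 and 0.02 in Snail and 1.56 and 1.35 in Slug (-1.59 ± 0.19, limma adjusted p = 0.00381), and SLC2A1, the glucose transporter GLUT1, at -0.33 and -0.82 and at 0.84 and 0.46 (-1.22 ± 0.23). SLC2A1 lost its call without Snail replicate 2 (-0.98) or Slug replicate 1 (-1.03).

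PKM, pyruvate kinase, also passed (-1.15), but its values followed the dye of the arrays. The 2 Slug arrays titled Cy3 were at 2.97 and 3.22 and the 2 titled Cy5 at -0.424 and -0.184. With arrays titled Cy5 alone its difference was 0.83, in the direction of Snail, and without Snail replicate 1 (-1.08) its call was lost. EGFL7, the 1 of 7 endothelial markers that passed (-1.0), had a difference of -0.38 on arrays titled Cy5 and -1.62 on arrays titled Cy3, and lost its call without Snail 1 (-1.04) or Snail 2 (-0.96). Among the other genes named here, a dye alone lost the call and moved the difference by over 1.5 times in DSP (-0.43 on arrays titled Cy3), ENG (-1.08, Cy3), TLN1 (-0.94, Cy3), GPC3 (0.62, Cy3), LUM (-0.91, Cy5), TIMP1 (-0.93, Cy5), PSMB8 (1.15, Cy3, and 0.34, Cy5), RPL18 (0.53, Cy3), EGR1 and CTSK.

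In the stress list 3 of 22 were higher in Slug and 1 in Snail, a share of 18.2% beside 14.3% of all genes. ATF4, the transcription factor of the integrated stress response, was at -1.03 and -0.87 in Snail and 0.80 and 0.81 in Slug, a difference of -1.76 ± 0.17 (limma adjusted p = 0.00228). Its target ATF3 was at -0.50 and 0.09 in Snail and 1.07 and 1.04 in Slug (-1.26 ± 0.22, limma adjusted p = 0.0115), and the chaperone DNAJB2, with 1 E47 replicate in the fit, differed by -1.37. PRDX1, a peroxide-reducing enzyme, was higher in Snail by 0.99 and did not pass after scaling (adjusted p = 0.0519 in limma). Without Snail replicate 1 the calls of ATF3 (-0.97), DNAJB2 (-1.23) and PRDX1 (1.14) were lost, and PRDX1 also lost its call without Snail 2 (0.85) or Slug 1 (1.0).

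Of 18 members of the list of ribosome and translation genes, 6 were higher in Snail and 3 in Slug, with a median difference of 0.28, and after scaling 2 were higher in Snail and 3 in Slug. Of 19 tested cytosolic ribosomal proteins, chosen by their names after values had been seen, 9 were higher in Snail and 1 in Slug, against 4.49% and 9.85% of all genes, and the median difference was 0.59. RPL35A was at -0.24 and -0.03 in Snail and -1.68 and -1.45 in Slug (1.43 ± 0.19, limma adjusted p = 0.00695), RPL36AL at 0.25 and 0.85 and at -0.96 and -0.79 (1.42 ± 0.23), and RPL22 at 0.01 and 0.20 and at -1.07 and -0.92 (1.10 ± 0.18). RPS27L, RPL31, RPL18, RPL11, RPL10A and RPS6 were the other 6 of these 9, with differences from 0.71 to 1.07, and RPS21 was the one higher in Slug (-0.87). RPL35A and RPS27L had only 1 E47 replicate in the fit. Ribosomal protein genes have many near-identical copies, so a cDNA probe may read more than the gene it is named for.

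The ribosomal count moved with the settings while its median stayed on the Snail side. After scaling 5 were higher in Snail and 1 in Slug, with a median of 0.55. Leaving out 1 replicate, 3 were higher in Snail without Snail 1 or Snail 2, 4 without Slug 1 and 6 without Slug 2. None passed on arrays titled Cy3 alone, where the median was 0.47, and 7 passed on arrays titled Cy5 alone. Elongation factors went the other way, with EEF1D at -0.80 and -0.82 in Snail and 1.41 and 0.83 in Slug (-1.93 ± 0.22, limma adjusted p = 0.0036) and EEF2 differing by -1.11. EEF2 lost its call without Snail replicate 1 (-0.99) and RPL22 without Snail replicate 2 (1.01).

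Of 55 tested genes of mitochondrial respiration, its assembly and the mitochondrial ribosome, also chosen by name after values had been seen, 14 were higher in Snail and 3 in Slug, with 38 that did not pass and a median of 0.15. Over all genes, 4.49% were higher in Snail and 9.85% in Slug, with a median of -0.092. The respiratory chain supplied most of the 14. COX7A2, a subunit of cytochrome c oxidase, was at 0.20 and 0.47 in Snail and -1.11 and -1.19 in Slug (1.48 ± 0.18, limma adjusted p = 0.00381), and SDHD, a membrane subunit of succinate dehydrogenase, at 0.14 and 0.32 and at -1.42 and -1.07 (1.48 ± 0.24). The complex I subunits NDUFB4, NDUFS1, NDUFA1 and NDUFB3 differed by 1.15, 1.09, 0.87 and 0.87, COX6B1 by 1.19, UQCRQ of complex III by 0.86, and the ATP synthase subunits ATP5MK, ATP5MF, ATP5MJ and ATP5MC2 by 1.13, 0.76, 0.73 and 0.67. The mitochondrial ribosome split, with MRPL1 and MRPS10 (1.40) higher in Snail and MRPS30 (-1.49), MRPS16 (-1.12) and MRPL16 (-0.61) higher in Slug.

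After scaling, 8 mitochondrial genes were higher in Snail and 2 in Slug. Without 1 replicate 4, 3, 4 and 13 were higher in Snail, in the order Snail 1, Snail 2, Slug 1 and Slug 2, and on arrays titled Cy3 alone 2 were. SDHD lost its call without Snail 1 (1.57) or Snail 2 (1.39). Of 26 proteasome subunits and regulators, listed by name in the same way, the median difference was -0.058, and 4 were higher in Snail, PSMB7 (1.07), PSMB3 (0.79), PSMA2 (0.76) and the interferon-inducible PSMB8 (0.75), and none of the 4 passed after scaling, or without Snail 1, Snail 2 or Slug 1. The activator PSME3 went the other way, with -0.51 and -0.11 in Snail and 1.45 and 1.41 in Slug (-1.74 ± 0.19, limma adjusted p = 0.00325), and it passed after scaling as well. In the proteasome list 19.2% passed, beside 14.3% of all genes, where 4.49% were higher in Snail and 9.85% in Slug.

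**Figure D3:**
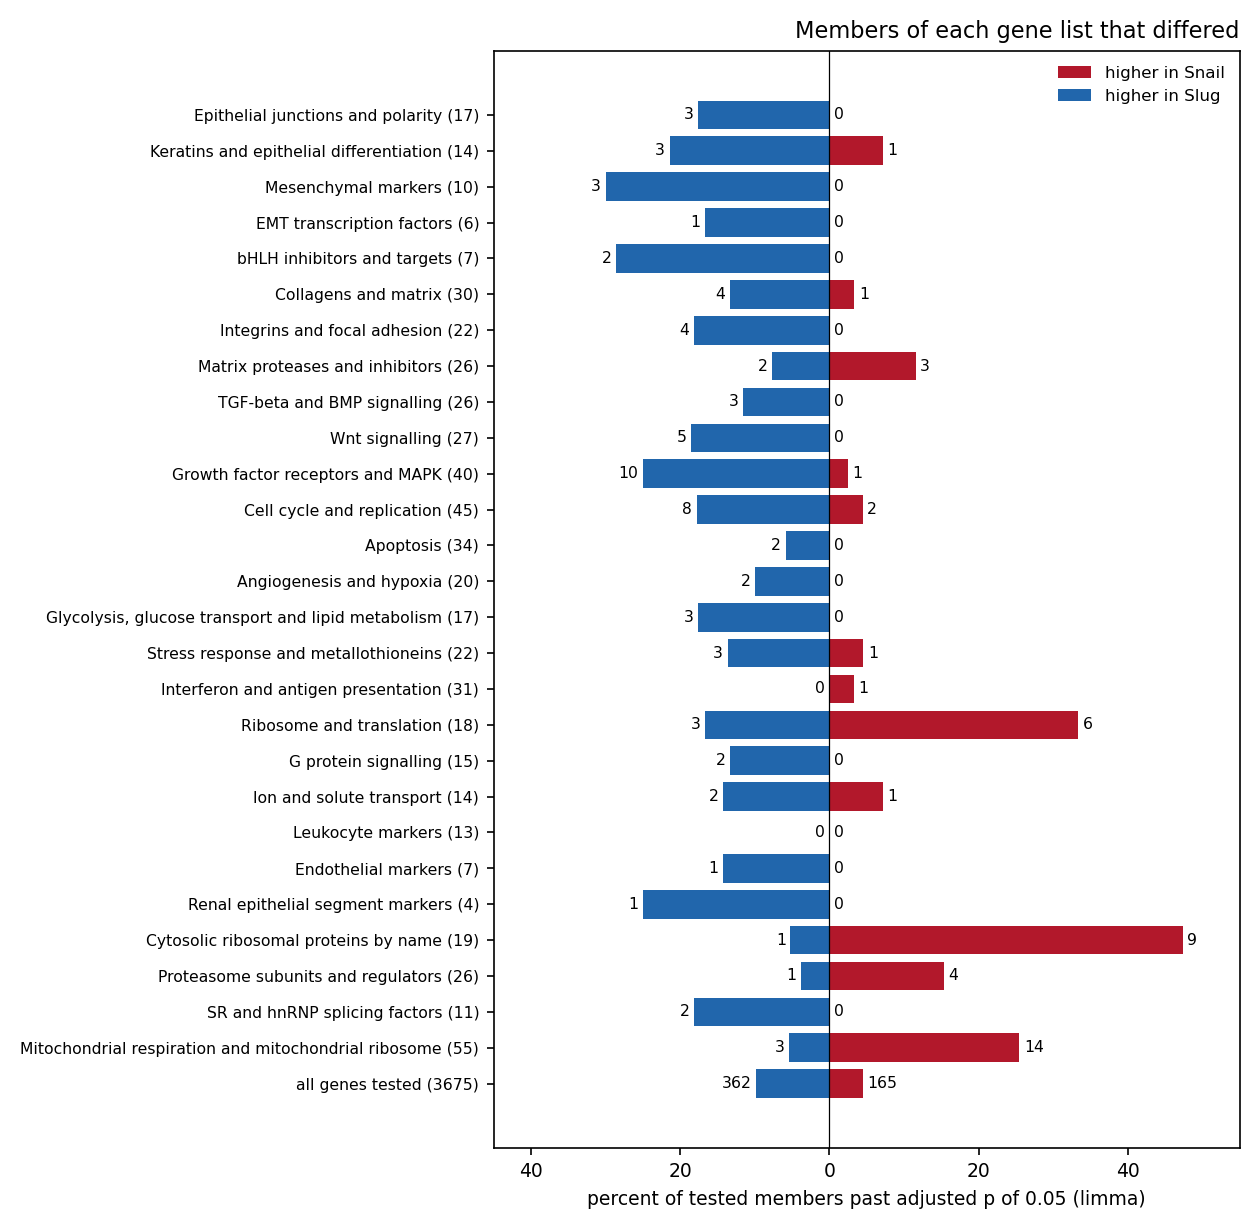
Percent of the tested members of each gene list reported (number in brackets) that passed adjusted p of 0.05 in limma, drawn to the right in red where Snail was the higher and to the left in blue where Slug was, with the number of genes at each bar end. The bottom row gives all 3675 genes, with 362 higher in Slug and 165 higher in Snail. The rows of ribosomal proteins by name and of mitochondrial genes lean to the right and the growth factor row, with 10 against 1, to the left.

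Other lists had few members past the threshold. The share was 11.5% in TGF-beta and BMP signalling, 5.88% in apoptosis and 13.3% in G protein signalling. Each of these shares was under the 14.3% of all genes. In TGF-beta and BMP signalling 3 of 26 were higher in Slug, the ligands BMP7 (-1.66), INHBA (-0.90) and INHBB (-0.72), and the 2 clones of INHBB went apart (-1.5 and 0.055). After scaling INHBA (adjusted p = 0.0789) and INHBB (0.0844) did not pass in limma, and BMP7 lost its call without Snail 1 (-1.81), Snail 2 (-1.5) or Slug 1 (-1.34). Of 34 apoptosis genes BCL2L1, which holds cell death back, differed by -1.02 and TNFRSF1B, a receptor of tumour necrosis factor, by -0.83. Of 15 genes of G protein signalling PRKAR1A, a regulatory subunit of protein kinase A, differed by -0.91 and GNAS, a stimulatory G protein subunit, by -0.69. The clones of GNAS went apart, with differences of -0.78, -1.26 and -0.046. BCL2L1 (0.0641), PRKAR1A (0.0526) and GNAS (0.0759) did not pass adjusted p after scaling in limma. BCL2L1 lost its call without Snail 1 (-0.76) or Slug 2 (-0.91), INHBB and GNAS without any one of the 4 replicates (-0.79 to -0.66 and -0.72 to -0.67), and INHBA (-0.98 to -0.79), PRKAR1A (-0.98 to -0.84) and TNFRSF1B (-0.85 to -0.69) without Snail 1, Snail 2 or Slug 1.

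Among 14 ion and solute transporters 21.4% passed, beside 14.3% of all genes. ATP4A was higher in Snail, and ATP6V0C, a subunit of the vacuolar proton pump (-1.58), and ATP1B3, a subunit of the sodium pump (-1.17), were higher in Slug. Both lost their calls without Snail replicate 1 (-1.23 and -0.97). Of the markers of other cell types, none of 13 leukocyte markers passed, with differences from -0.52 to 0.80, and EGFL7 was the 1 of 7 endothelial markers that did. Of 31 interferon genes 1 passed, PSMB8, which lost its call without Snail 1 (0.84), Snail 2 (0.66) or Slug 1 (0.64). Of 4 renal markers PAX8, a transcription factor of kidney epithelium, differed by -0.63, with clone differences of -0.13 and -1.12, no call after scaling (adjusted p = 0.0587 in limma), and none without any one of the 4 replicates (-0.65 to -0.60).

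SNAI1 was higher in Snail on average, though its 2 Snail replicates were far apart. It was at 1.04 and 2.37 in Snail and at 0.70 and 0.64 in Slug, so a SNAI1 ratio above the control was also read in the Slug transfectant. The difference was 1.04 with a 95% interval from 0.19 to 1.88 and did not pass (limma adjusted p = 0.0949, and 0.07 after scaling). It passed without Snail replicate 1, at 1.70. Whether this probe reads the introduced gene is unknown, since the constructs are not described.

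CDH1 and the other genes far below the control in both transfectants are described by their intervals, since they were listed with earlier results of these data known. CDH1 was at -2.12 and -2.03 in Snail and -2.48 and -2.44 in Slug, a difference of 0.39 with a 95% interval from -0.11 to 0.88. Its 3 clones differed by 0.33, 0.54 and 0.29, but only clones 1 and 2 were far below the control. Their means were -2.88 and -3.57 in Snail and -3.21 and -4.12 in Slug. Clone 3 was near the control, at 0.22 and 0.25 in Snail and -0.14 and 0.02 in Slug. After scaling the difference of CDH1, averaged over its clones, turned to -0.17. SPP1, the secreted osteopontin, differed by 0.53 (95% interval from -0.36 to 1.42, and -0.36 after scaling), and FXYD3, a modulator of the sodium pump, by 0.49 (from -0.27 to 1.25, and -0.28 after scaling). For these 3 genes the sign of the difference thus changed with the scaling. Without Snail replicate 1 the difference of SPP1 was -0.07.

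The intervals of IL1RN, the interleukin-1 receptor antagonist (-0.98 to 0.68), and SLCO2A1, a prostaglandin transporter (-1.33 to 0.83), included 0 and up to about 1 log2 unit in either direction. Those of the receptor phosphatases PTPRM (-0.75 to 1.34) and PTPRZ1 (-0.82 to 2.49) and the desaturase SCD5 (-0.61 to 1.84) were wider, with Snail replicates of 1.16 and 2.76, of -0.91 and -3.39, and of 2.11 and 3.70. RGS2, a regulator of G protein signalling, was at -3.32 and -3.26 in Snail and -2.68 and -2.13 in Slug, with no overlap of arrays. Its difference of -0.89 did not pass (limma adjusted p = 0.0514) and did pass after scaling (-1.54, limma adjusted p = 0.0296) and without Slug replicate 1 (-1.16).

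**Figure D4:**
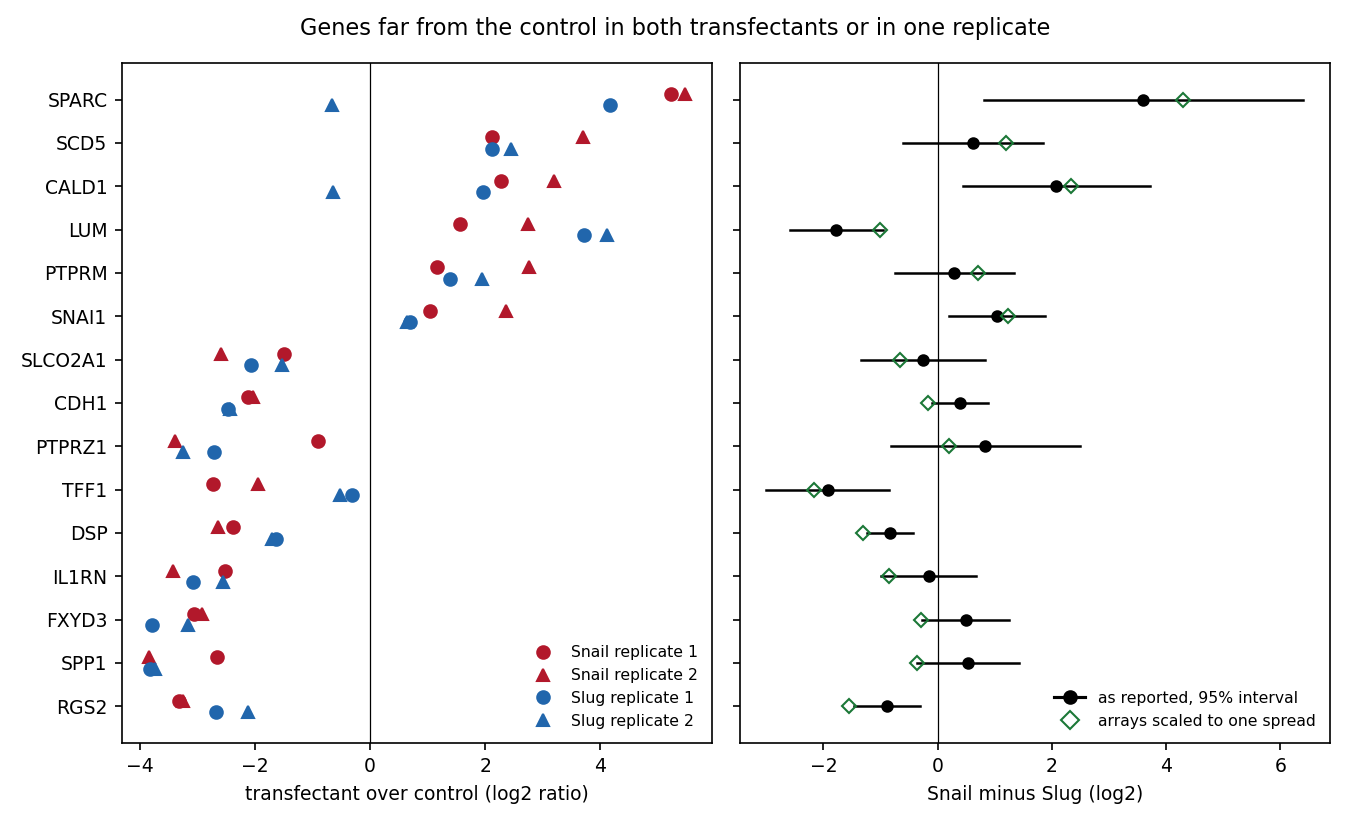
Left, log2 ratio to the control of the 2 Snail (red) and 2 Slug (blue) replicates, circles for replicate 1 and triangles for replicate 2, for 15 genes. Right, Snail minus Slug of the same genes as black points with 95% intervals from limma, and as green diamonds with arrays scaled to one spread. CDH1, SPP1 and FXYD3 have diamonds on the other side of 0, and SPARC and CALD1 have a Slug replicate 2 below the control beside a replicate 1 at 4.17 and 1.96.

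The largest mean difference of all did not pass. SPARC, a secreted matrix protein, was at 5.24 and 5.48 in Snail but at 4.17 and -0.67 in Slug, where the arrays titled Cy3 and Cy5 were at 3.78 and 4.57 for replicate 1 and at -0.742 and -0.589 for replicate 2. All 4 Snail arrays were above all 4 Slug arrays, and the difference was 3.60 with a 95% interval from 0.81 to 6.40 (limma adjusted p = 0.0849). It passed after scaling (4.30, limma adjusted p = 0.0383), without Slug replicate 1 (6.02) and without Slug replicate 2 (1.18). CALD1, the actin-binding caldesmon, had the same order of replicates, with 2.28 and 3.20 in Snail and 1.96 and -0.64 in Slug (2.08, limma adjusted p = 0.0887), and passed at 3.38 without Slug replicate 1. The Slug replicates also lay far apart in COL15A1, a basement membrane collagen (3.56 and 0.79), in PSMG2, a proteasome assembly chaperone with 1 E47 replicate in the fit (-0.92 and 1.40), and in TFPT, a subunit of a chromatin remodelling complex (-2.33 and -0.28). COL15A1 and TFPT passed without Slug replicate 2, at -3.18 and 2.56, and PSMG2 without Slug replicate 1, at -2.75.

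A core of 54 of the 527 genes passed in the same direction under all 14 alternative settings that kept the signs, 45 higher in Slug and 9 higher in Snail. The 14 are 2 ways of scaling to one spread, centring, 3 other fits, each dye alone, medians of spots, probes present on all arrays and the 4 fits without 1 replicate. Of the 54, 41 lay on opposite sides of the control. Among the 45 are VEGFA, HDGF, SRSF4, SRSF9, BHLHE40, PATL1, MACIR, PTPN1, ARPC1B, JUND, EEF1D, ATF4, ALDOA, SFN, E2F1, CCN1 and PSME3. EP300, an acetyltransferase and coactivator (-1.21), CHD4, a chromatin remodeller (-1.49), and CITED2, which binds EP300 (-1.67), are also among them and were named after their values were seen. The 9 are ATP4A, NSF, TRMT11, ALCAM, ANXA1, SNRNP40, a spliceosome protein (1.52), COX7A2, TOR1AIP1, a nuclear envelope protein (1.44), and ITFG1.

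**Figure D5:**
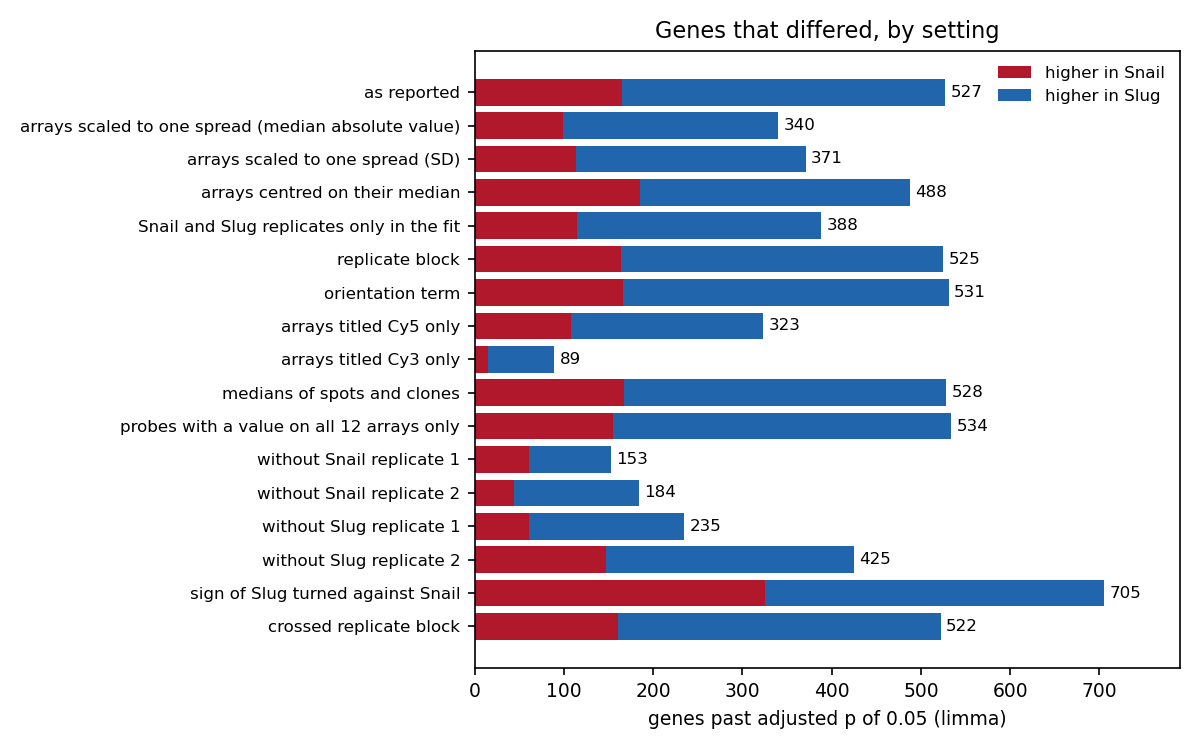
Number of genes past adjusted p of 0.05 in limma under each setting, red for those higher in Snail and blue for those higher in Slug, with the total at the bar end. The total is 527 as reported, falls to 89 on arrays titled Cy3 alone and to 153 without Snail replicate 1, and is 705 with Slug turned against Snail. The blue share exceeds the red in every bar.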

How the data were processed

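Each of 12 two-colour cDNA arrays, 8 of them used here, compared total RNA of an MDCK transfectant with that of MDCK-CMV cells. The authors deposited log2 ratios, with array medians of the 8 between -0.0634 and 0.0594. Not given in the sources used here: the scanner, background correction, normalisation and filter. Ratios carry no signal over background, and precision is limited by the number of arrays. Of 13056 probes, 8047 had 1 gene symbol in the platform annotation, 276 had several and 4733 none; only the first entered, giving 4325 genes, 527 with several clones. Symbols are those of human genes.

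Spots were averaged per clone and clones per gene, the Snail 2 and Slug 1 arrays were multiplied by -1 (as was the E47 2 array titled Cy5), and the 2 arrays of a sample were averaged. limma 3.58.1 (R 4.3.3) fitted the 3 group means together with empirical Bayes moderation (3 residual degrees of freedom, prior 5.22, prior SD 0.202). Snail minus Slug was tested two-sided, with Benjamini-Hochberg adjustment over 3675 genes; 138 of them had an E47 replicate missing. A gene was called at adjusted p under 0.05, and 1166 genes had an unadjusted p under 0.05. On simulated data with known changes, 57% of genes changed by log2 1 and 95% of those changed by log2 2 were recovered, with 8 unchanged genes called. The simulated arrays had normal noise, no dye effect and known signs, so these figures may not hold for the measured arrays. Scaling to one spread equalised the median absolute ratio over the 12 arrays.

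Genes named in the text are the 12 largest called differences each way with no overlap of arrays, the 8 largest each way on opposite sides of the control, up to 4 called members per list, SNAI1, CDH1 and genes far from the control in both, and the 6 largest differences not called; others count members of a group or are said to be chosen after their values were seen. The samples, gene lists and genes were chosen with earlier results of these data known. Lists are described by counts and medians beside those of all genes, with no test. The gene lists are reported except for a single one, which is not reported here.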

Additional observations from a re-analysis of the deposited data

Results flagged for a closer look

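Flagged here are the 24 genes, of 3675 tested, that passed against the control in both transfectants on opposite sides and also differed in limma. Opposite direction is the rule by which they were chosen. Of all genes tested, 7.84% passed against the control in Snail and 23.5% in Slug. Whether 24 is more than those shares alone would give was not tested. The 8 of them that are also named genes had differences (log2, Snail minus Slug) of -2.50 in SRSF4, -2.36 in HDGF, -2.25 in MACIR, -1.98 in ARPC1B, -1.93 in EEF1D, -1.76 in ATF4, -1.66 in EGR1 and -1.49 in CCND1. In each of the 8 both Snail replicates were below the control and both Slug replicates above it. The limma adjusted p of the difference lay between 0.00208 and 0.00469. Opposite sides and a difference past the threshold were set by the selection, so neither is further evidence on these genes. E47, the third transfectant, was above the control in both replicates of HDGF (0.64 and 0.84), SRSF4 (0.89 and 0.62) and CCND1 (0.70 and 0.76). It was also above the control in MACIR (0.39 and 0.62), ARPC1B (0.19 and 0.44) and EEF1D (0.42 and 0.43). In ATF4 it was below the control in both replicates (-0.67 and -0.63), on the side of Snail. If the sign of Slug relative to Snail were the other one, all 24 would lie on the same side of the control in both, and SRSF4 (-0.08), HDGF (-0.54) and CCND1 (-0.11) would differ little. The signs rest on CDH1 being below the control in both transfectants, and this was not tested further. As turned, every Snail array correlated with every Slug array at r between 0.075 and 0.324 across probes. The other sign of Slug would make these values negative, and which sign is right was not tested.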

How the results depend on the processing

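The count of 527 differing genes was 340 with arrays scaled to one spread by the median absolute value, 323 on arrays titled Cy5 alone, 89 on arrays titled Cy3 alone (15 higher in Snail and 74 higher in Slug) and 153 to 425 with 1 replicate left out: 153 without Snail replicate 1, 184 without Snail replicate 2, 235 without Slug replicate 1 and 425 without Slug replicate 2. Those fits leave 1 sample in a group, which is assumed to vary like the others. The 339 genes on opposite sides became 219 on Cy5 arrays, 65 on Cy3 arrays and 128 to 286 without 1 replicate. The 233 genes with at least 2-fold differences became 89 on Cy3 arrays and 149 to 304 without 1 replicate. Of the 24 largest differences 13 passed on Cy3 arrays and 19 to 23 without 1 replicate. The causes were not tested. Among the 103 named genes, direction changed in these: with the 2 ways of scaling to one spread, CDH1 (-0.17 and -0.18), FXYD3 (-0.28 and -0.31) and SPP1 (-0.36 and -0.35), and SPP1 also without 1 replicate (-0.065 to 1.12); PKM on Cy5 arrays (0.83); IL1RN on Cy5 arrays (0.11), on probes present on all 12 arrays (0.015), and without 1 replicate (-0.60 to 0.30, above 0 without Snail 2 or Slug 2); SLCO2A1 on Cy3 arrays (0.25), on probes on all 12 arrays (0.21), and without 1 replicate (-0.80 to 0.30, above 0 without Snail 2 or Slug 2); and, without 1 replicate, PTPRM (-0.51 to 1.09) and SCD5 (-0.18 to 1.41), below 0 without Snail 2, and PTPRZ1 (-0.41 to 2.08), below 0 without Snail 1. Centring shifted the median difference from -0.092 to -0.045 and the share of calls higher in Snail from 31.3% to 37.9%. Replicate numbers paired the samples only by name: deviations of same-numbered samples correlated with r = 0.024 between Snail and Slug, 0.226 between Snail and E47 and -0.056 between Slug and E47. A replicate block gave 525 calls, the crossed block, added after seeing the data, 522, and a term for the orientation of the arrays 531. With only the Snail and Slug replicates in the fit the count fell to 388, so part of the 527 calls depended on the E47 samples. Scaling to one spread by the SD gave 371. With Slug turned, the counts were 705 and, on opposite sides, 500.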
